A study of Mus musculus with 6 samples.

Results

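This account covers 30 genes of the G2 phase and mitosis, among the 43629 mouse gene IDs of the count table. They were chosen by name and not by a rule on their values, though earlier results of these data were known. All 30 symbols were found in GENCODE and all 30 had enough counts to be tested, among 13445 genes tested. The RNA came from M1 cells, a neuroblastoma line of the mouse, and polyadenylated transcripts were sequenced 6 days after doxycycline at 4 to 6 µg/ml had switched on a short hairpin RNA. The shNT group (3 libraries) carried a non-targeting hairpin and the shIGF2BP1 group (3 libraries) a hairpin against Igf2bp1, an RNA-binding protein of fetal tissue and tumours. The genotype label is WT for the first and IGF2BP1 knockdown for the second. Both groups received doxycycline, no group without it and no other hairpin against Igf2bp1 is named, and whether replicates were separate cultures is not in the labels. If they were not, the p-values reflect technical spread alone.

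Entry into mitosis is driven by the kinase Cdk1 bound to cyclins A and B, with the Cdc25 phosphatases removing the phosphates that hold Cdk1 back. Aurora and Polo kinases then build the spindle, the spindle checkpoint holds the cell until every kinetochore is attached, and the ligase APC/C with Cdc20 ends mitosis by destroying the cyclins. The mRNAs of these genes rise together late in the cell cycle. Their promoters are known for a short element called the cell cycle genes homology region (CHR), bound by the DREAM complex in resting cells and by the Mybl2 and Foxm1 complexes in dividing ones, and for CCAAT boxes bound by NF-Y. In a bulk sample their level is often read as a measure of how many cells divide, but fewer cells in G2 or mitosis and less mRNA in each such cell cannot be told apart.

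Because the 30 genes moved together, as described below, their promoters are shown for members that followed the others and for Aurka and Cdc25b, which left them most in correlation. The windows run from 250 bases before to 50 after the RefSeq transcription start on GRCm38.p6, and 24 of the 30 members had an entry. Ccna2, Cdc25c, Aurkb, Kif20a, Tpx2 and Foxm1 had none. Searched on both strands were the common CHR word TTTGAA, its variant TTTAAA, the rarer form TTCGAA, the related word CTTGAA, and the CCAAT box. In the sequences they stand in capitals, in the letters of the gene's strand. Bub1b and Ttk followed the other members most closely (r of 0.97 and 0.972 over the libraries), and Plk1 (0.889) lay slightly below the members' median of 0.911. Cdk1 and Ccnb2 followed less (0.746 and 0.766), and Aurka and Cdc25b least (0.376 and 0.133).
Cdk1 (chr10:69352863-69353162, minus strand): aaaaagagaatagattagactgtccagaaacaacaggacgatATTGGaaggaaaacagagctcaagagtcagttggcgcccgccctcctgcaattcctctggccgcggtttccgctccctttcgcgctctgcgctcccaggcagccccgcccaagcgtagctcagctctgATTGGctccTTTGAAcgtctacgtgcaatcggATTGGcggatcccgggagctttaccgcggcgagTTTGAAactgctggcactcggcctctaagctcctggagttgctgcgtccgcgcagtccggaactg
Ccnb2 (chr9:70421505-70421804, minus strand): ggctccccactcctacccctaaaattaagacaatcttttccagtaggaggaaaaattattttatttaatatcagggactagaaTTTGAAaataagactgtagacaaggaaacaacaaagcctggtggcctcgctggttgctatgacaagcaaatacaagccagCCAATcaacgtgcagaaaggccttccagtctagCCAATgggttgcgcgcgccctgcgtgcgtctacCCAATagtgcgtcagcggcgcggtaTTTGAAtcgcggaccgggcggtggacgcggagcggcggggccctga
Plk1 (chr7:122159185-122159484, plus strand): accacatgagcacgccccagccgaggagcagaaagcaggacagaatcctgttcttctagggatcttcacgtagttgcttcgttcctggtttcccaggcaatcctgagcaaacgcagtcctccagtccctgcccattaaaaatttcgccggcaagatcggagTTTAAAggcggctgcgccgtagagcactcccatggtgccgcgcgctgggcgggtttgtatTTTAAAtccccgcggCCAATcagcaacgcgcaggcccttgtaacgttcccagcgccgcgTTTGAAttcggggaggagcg
Bub1b (chr2:118597961-118598260, plus strand): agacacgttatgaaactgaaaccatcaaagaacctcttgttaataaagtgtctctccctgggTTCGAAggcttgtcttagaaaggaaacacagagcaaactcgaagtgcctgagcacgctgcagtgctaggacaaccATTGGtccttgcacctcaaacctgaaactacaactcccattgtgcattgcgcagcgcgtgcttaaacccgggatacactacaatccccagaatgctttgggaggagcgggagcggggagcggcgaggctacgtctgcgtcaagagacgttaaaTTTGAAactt
Ttk (chr9:83834439-83834738, plus strand): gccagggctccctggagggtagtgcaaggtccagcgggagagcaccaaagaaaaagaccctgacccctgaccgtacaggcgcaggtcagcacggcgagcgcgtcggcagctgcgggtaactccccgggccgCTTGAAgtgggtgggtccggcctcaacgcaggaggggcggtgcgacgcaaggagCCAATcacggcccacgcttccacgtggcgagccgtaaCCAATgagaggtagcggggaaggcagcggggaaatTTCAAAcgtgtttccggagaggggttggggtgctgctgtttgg
Aurka (chr2:172370521-172370820, minus strand): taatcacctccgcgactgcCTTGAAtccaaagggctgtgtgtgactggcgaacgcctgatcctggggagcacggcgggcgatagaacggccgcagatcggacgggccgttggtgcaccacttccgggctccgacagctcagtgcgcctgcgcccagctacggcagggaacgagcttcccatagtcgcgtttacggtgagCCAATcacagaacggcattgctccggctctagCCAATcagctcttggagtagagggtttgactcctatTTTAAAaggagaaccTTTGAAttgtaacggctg
Cdc25b (chr2:131186698-131186997, plus strand): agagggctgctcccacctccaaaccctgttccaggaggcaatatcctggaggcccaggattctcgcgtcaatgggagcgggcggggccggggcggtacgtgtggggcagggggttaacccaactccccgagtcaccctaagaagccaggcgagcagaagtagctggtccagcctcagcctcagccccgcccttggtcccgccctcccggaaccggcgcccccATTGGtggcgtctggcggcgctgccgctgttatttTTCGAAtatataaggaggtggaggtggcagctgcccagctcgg

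At least 1 CHR word stood in the window of 22 of the 24 members (91.7%), against 37.3% of all 32851 windows in the table. TTTGAA alone was present in 17 of 24 members (70.8%) and in 17.9% of all windows. A CCAAT box was present in 21 of 24 (87.5%) against 37.4%, and at least 2 of them in 14 of 24 (58.3%) against 11.7%. Nek2 and Nusap1 held no CHR word in this window, and their mRNAs still followed the list. Cdc25b, a phosphatase that activates Cdk1, held TTCGAA at position 8 to 13 counted from the transcription start and 1 CCAAT box, while Aurka, the kinase of spindle poles, held TTTAAA at 18 to 23, TTTGAA at 33 to 38, CTTGAA further upstream at -231 to -226, and 2 CCAAT boxes. Plk1, whose r of 0.889 lay slightly below the members' median of 0.911, also held TTTGAA (31 to 36), TTTAAA and a CCAAT box. The Aurka gene (ENSMUSG00000027496) spans chr2:172356190-172370535 on the minus strand and Cdc25b (ENSMUSG00000027330) chr2:131186949-131198497 on the plus strand of GRCm38, and each window covers the first transcribed bases. GENCODE, the source of these spans, starts Aurka further downstream than RefSeq, so the positions given for Aurka hold for the RefSeq start only. Among DNA replication genes, which are transcribed earlier in the cycle, 10 of 27 windows (37.0%) held a CHR word and 3 of 27 (11.1%) held TTTGAA. Matches are given as a description, and 1 pair of matches in the members' windows overlapped.

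Library totals ran from 25119655 to 35373076 counts, and a member had at least 1524 counts in every library, so that counting error was small, with an SD of 0.009 to 0.033 on the log2 scale. Levels below are CPM, each count set against the library total after TMM scaling. Igf2bp1 itself had 1.25, 5.14 and 6.08 CPM in the shNT libraries and 2.55, 0.992 and 11.3 CPM in the libraries labelled shIGF2BP1, and the groups overlapped. edgeR gave a log2 fold change of 0.25 ± 0.79 (SE; adjusted p = 0.966), so no fall of the targeted mRNA was measured and every direction below compares labelled groups. Among sympathetic and neuroblastoma markers, Hand1, Insm1, Th, Dbh and Chga had 0 counts in every library, while Hand2 had 256.5 to 479.6 CPM and Mycn 31.5 to 51.7 CPM. Summed leukocyte markers reached 7.85 to 14.9 CPM in shNT and 3.94 to 5.84 CPM in shIGF2BP1, most of it Cd68 (7.78 to 14.6 and 3.13 to 5.56 CPM), with Csf1r at up to 0.693 CPM and Adgre1 and Cd3e at 0. Summed fibroblast and mesenchymal markers reached 522 to 592 and 339 to 644 CPM. Col1a1 was the largest part (279.9 to 390.0 and 228.2 to 493.2 CPM), and Lum had 0 counts. The genes of this sum did not move alike. Prrx1, named after its value was seen, had 129.8 to 148.4 CPM in shNT and 48.9 to 69.5 CPM in shIGF2BP1 (edgeR adjusted p = 0.13). Pdgfra and Pdgfrb also had negative log2 fold changes, -0.69 and -0.87 (edgeR adjusted p = 0.687 and 0.695), with overlapping groups. Those of Col1a1 and Dcn were 0.01 and 0.09. Dcn overlapped between groups, at 7.42 to 12.1 and 8.6 to 10.8 CPM. Col1a2, too low to be tested, was higher in shIGF2BP1 but reached at most 0.328 CPM.

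The 30 genes varied together from library to library, and this movement did not follow the hairpin. shNT replicate 2 stood highest. There 30 of 30 members lay above their own mean over the 6 libraries, against 51.3% of all genes tested, and 25 of 30 had their highest level, against 15.9%. The other two shNT libraries stood lowest, with 7 of 30 members above their own mean in replicate 1 (49.7% of all genes) and 5 of 30 in replicate 3 (50.6%). In these libraries 23 of 30 members had their lowest level, against 42.7% of all genes. Within shIGF2BP1, 25 members lay above their mean in replicate 1 (51.6% of all genes), 4 in replicate 2 (50.8%) and 24 in replicate 3 (48.6%). On a log2 scale centred on each gene's mean, the median member was at -0.21, 0.44 and -0.41 in shNT replicates 1 to 3 and at 0.20, -0.20 and 0.13 in shIGF2BP1 replicates 1 to 3. Together the 30 genes took 0.528%, 0.883% and 0.509% of all counts in the shNT libraries and 0.752%, 0.574% and 0.68% in the shIGF2BP1 libraries. The shNT libraries thus spanned a range that contained all 3 shIGF2BP1 libraries.

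**Figure D1:**
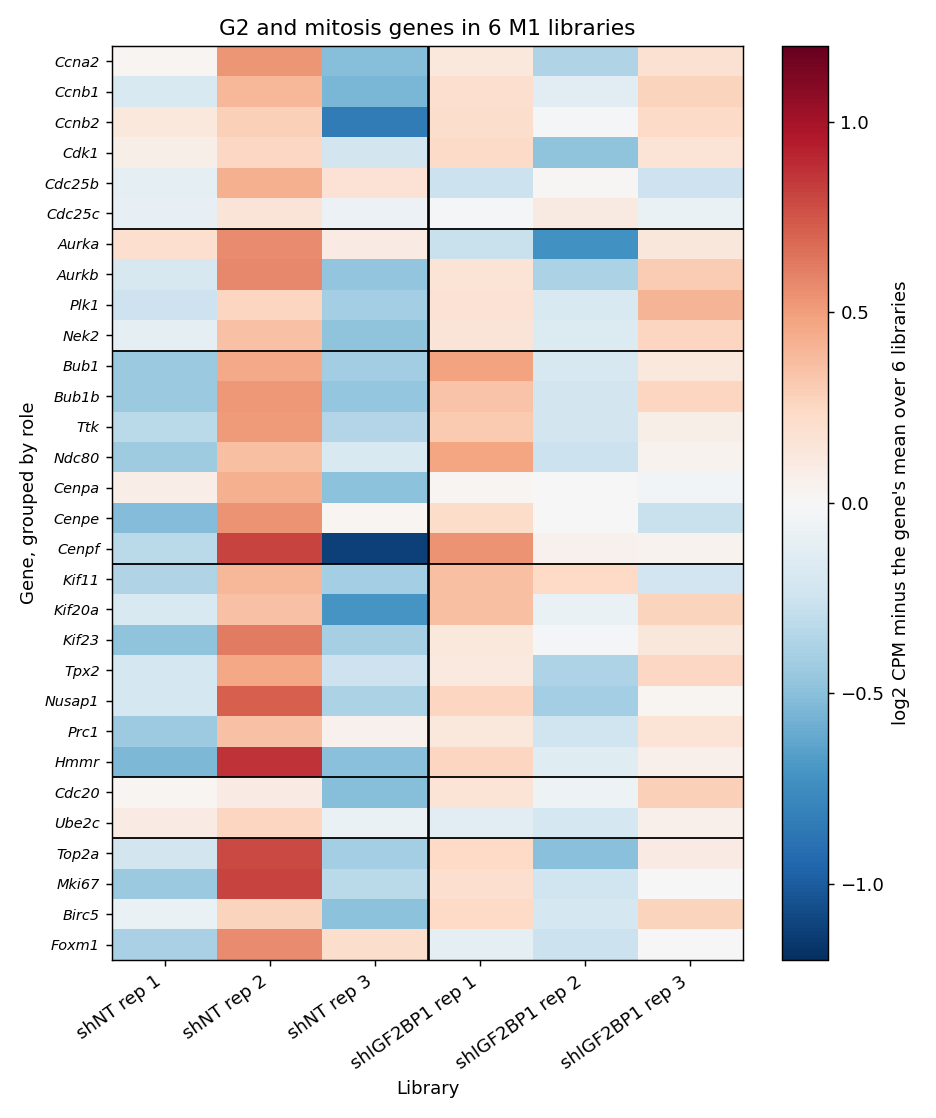
Each row is a gene and each column a library, and the colour is log2 CPM minus that gene's mean over the 6 libraries, with horizontal lines between role groups and a vertical line between shNT and shIGF2BP1. The column of shNT replicate 2 is above the mean for 30 of 30 genes, and shNT replicate 3 is below it for 25 of 30.

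The size of the shared movement was moderate. From its lowest to its highest library the median member changed 1.91-fold, against 1.89-fold for the median of all genes tested and 1.66-fold for the 5149 of them with a mean of 50 CPM or more. Most members placed the libraries in a like order. The Pearson correlation over the 6 libraries between a member and the median of the other 29 had a median of 0.911 and ran from 0.133 to 0.972, and it was over 0.8 for 19 of 30 members. For all genes tested, the correlation with the members' median had a median near 0 and was over 0.8 in 3.7%. Each of these correlations rests on 6 libraries that share their scaling factors, and it is given without a p-value. After the mean of each group was subtracted the median was 0.905, and it was 0.885 over the 4 libraries left without shNT replicates 2 and 3, the outermost of the 6. A single component held 74.3% of the variance of the centred values, with the same sign in 30 of 30 members.

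The 2 members closest to the others were both spindle checkpoint genes. Ttk, the checkpoint kinase Mps1, had 51.3, 91.3 and 50.3 CPM in shNT and 79.4, 55.2 and 67.3 CPM in shIGF2BP1, with r = 0.972 and Spearman's rho = 1.0. It was high in shNT replicate 2 and shIGF2BP1 replicate 1, and the groups overlapped. Bub1b, the checkpoint protein BubR1, had 191, 374 and 189 CPM in shNT and 331, 224 and 313 CPM in shIGF2BP1, in the same order of libraries (r = 0.97, rho = 1.0). Among the 435 pairs of members, the correlations were over 0.8 in 157 and under 0 in 15. Nusap1, a protein that bundles spindle microtubules, and Top2a, which untangles sister chromatids, correlated at 0.995, as did Ccnb1, cyclin B1, and Nek2, a centrosome kinase.

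Between the groups no member passed the test. edgeR called 0 of 30 members at an adjusted p of 0.05, where it called 3 of 13445 genes (0.0223%), and DESeq2 and limma-voom also called 0 members, beside 0.61% and 0.00744% of all genes. At an unadjusted p under 0.05 edgeR counted 1 member, Aurka, on the lower side, beside 3.99% of all genes lower, 3.17% higher and 7.16% in either direction. The smallest adjusted p of a member was 0.695. Of 30 log2 fold changes 17 were positive, against 48.5% over all genes, and their median was 0.01 beside -0.012 over all genes. The groups did not overlap for 0 of 30 members, against 5.59% of all genes lower in shIGF2BP1, 6.06% higher and 11.6% in all. The 95% interval of the log2 fold change lay between -1 and 1 for 28 members, the exceptions being Aurka and Cenpf. shNT replicate 2 weighed heavily on these values: without it the median was 0.382 and 26 of 30 were positive, still with 0 called.

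**Figure D2:**
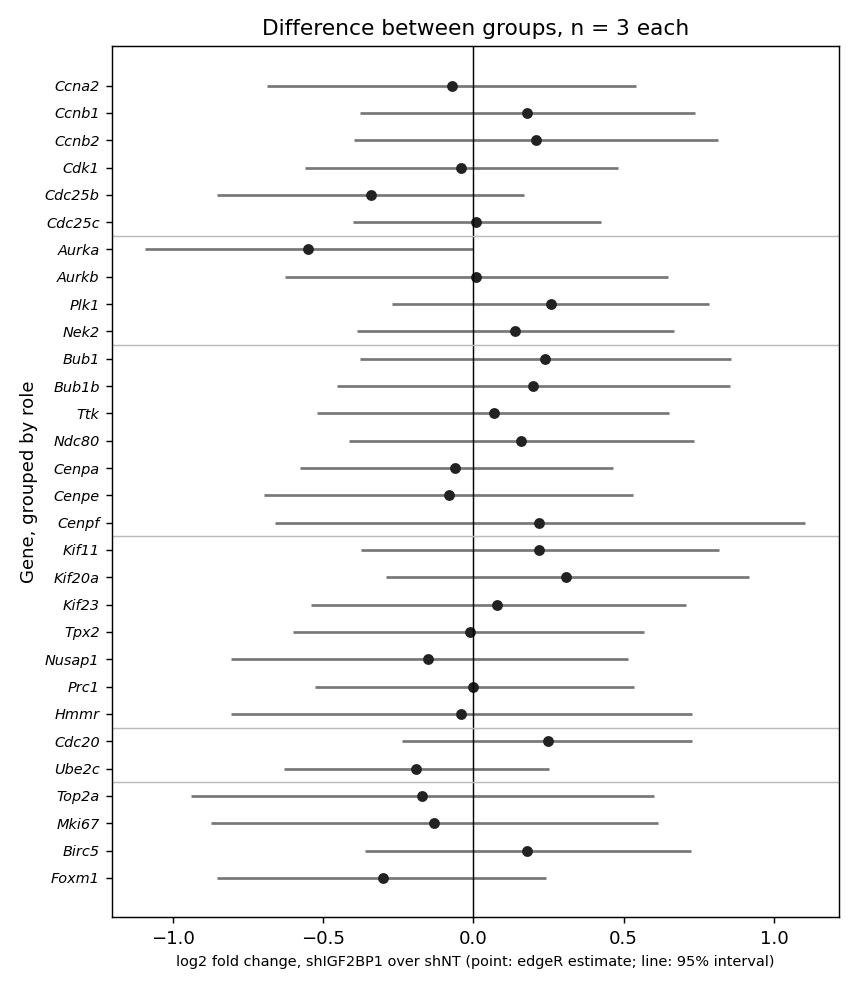
Points are edgeR log2 fold changes of shIGF2BP1 over shNT for the 30 genes, lines are 95% intervals, and grey lines separate role groups (n = 3 libraries each). The interval of Aurka, from -1.091 to -0.001, is the only one that does not cross 0.

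Among the cyclins and the Cdk1 engine, 3 of 6 log2 fold changes were positive. Ccnb1 had 107, 160.2 and 83.1 CPM in shNT and 139, 111 and 147 CPM in shIGF2BP1, with a log2 fold change of 0.18 ± 0.25 (SE). Ccnb2, cyclin B2, had 182, 204 and 93.0 CPM against 192, 166 and 195 CPM, so that shNT replicate 3 was lower than any other library. Ccna2, cyclin A2, ran from 164 to 337 CPM in shNT and from 182 to 265 CPM in shIGF2BP1. Cdk1 ran from 149.8 to 207.5 CPM and from 126 to 205 CPM. In each of these 4 genes the groups overlapped and the highest library was shNT replicate 2. Per kilobase of merged exons Cdc25b was the most abundant of the 30 at 120.1 CPM, followed by Ccnb2 at 112 CPM.

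Among the mitotic kinases Aurka was the member with the smallest p. It had 148, 191 and 138 CPM in shNT and 107, 77.9 and 142 CPM in shIGF2BP1. The lowest shNT library lay just below the highest shIGF2BP1 library, so the groups overlapped in that pair. Means were 159 ± 28.1 CPM in shNT and 109 ± 32.1 CPM in shIGF2BP1 (SD, n = 3 each). The log2 difference was -0.55 ± 0.25 (SE), for which edgeR's adjusted p was 0.695, and 0.384 to 1.0 in the alternatives. It was -0.342 without shIGF2BP1 replicate 2 and -0.787 without shIGF2BP1 replicate 3. Plk1, the Polo kinase with the highest level of the kinases per kilobase (71.8 CPM), had 130.2, 185 and 116 CPM in shNT and 174.5, 136.5 and 205 CPM in shIGF2BP1, a log2 fold change of 0.26 ± 0.24. Aurkb, the kinase of the chromosomal passenger complex, had a log2 fold change of 0.01 ± 0.29 and Nek2 of 0.14 ± 0.24. Aurka alone of the 4 kinases had a negative value, and no difference between kinases was tested.

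Among checkpoint and kinetochore genes 5 of 7 log2 fold changes were positive, from -0.08 for Cenpe to 0.24 for Bub1, and the median was 0.16. Cenpf, a large outer kinetochore protein, varied most of all 30 genes, 3.82-fold from lowest to highest library, with 165, 363 and 94.9 CPM in shNT and 299.7, 214 and 213 CPM in shIGF2BP1. The log2 difference, 0.22 ± 0.40 (SE), turned to -0.125 when shNT replicate 3 was left out and grew to 0.899 when shNT replicate 2 was. Ndc80, the microtubule hook of the kinetochore, ran from 53.0 to 91.8 CPM in shNT and from 59.7 to 99.3 CPM in shIGF2BP1. Cenpa, the histone that marks centromeres, had 89.8, 114 and 60.5 CPM in shNT and the narrow range of 83.3 to 86.5 CPM in shIGF2BP1. The groups overlapped in each of the 7 genes.

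Among spindle motors and microtubule proteins 4 of 7 log2 fold changes were above 0. Kif20a, a kinesin of cytokinesis, had 209, 303 and 145 CPM in shNT and 305, 226 and 286 CPM in shIGF2BP1, a log2 fold change of 0.31 ± 0.27, the highest of the 30. It shares 1271 exon bases (29.3% of its own) with Cdc23 on the other strand, and its counts are uncertain, since no source used here gives the strand setting of the counting. The same limit holds for Ube2c (22.77% of its exon bases shared with Tnnc2, which had at most 18 counts), Ccna2 (12.49%, Exosc9), Cdc25c (12.67%, Gm3550) and Prc1 (11.08%, Rccd1), and to a lesser extent for Plk1 (7.09%) and Nek2 (6.6%). Tpx2, which activates Aurora A at the spindle, had 265, 422 and 257 CPM in shNT and 333, 237 and 363 CPM in shIGF2BP1 (log2 fold change -0.01 ± 0.26). Hmmr, a microtubule-binding protein, ran from 82.1 to 219 CPM in shNT and from 108 to 143 CPM in shIGF2BP1. Kif11, the motor that pushes spindle poles apart, had 195.5, 330.2 and 189 CPM against 323, 296.5 and 215 CPM. Kif11 was the highest of the 30 centred values in shIGF2BP1 replicate 2, a library where most members were low. The last members of this role followed the list, with Kif23, a cytokinesis kinesin, at 92.9 to 199 CPM in shNT and 129 to 143 CPM in shIGF2BP1, and Nusap1 at 112 to 239 and 109.5 to 174 CPM. Prc1, which crosslinks the central spindle, was less close (r = 0.699) at 154 to 266 and 177 to 233 CPM.

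Cdc20 and Ube2c serve the APC/C, Cdc20 as its activator and Ube2c as the enzyme that supplies ubiquitin. Cdc20 had 157, 166 and 109 CPM in shNT and 173, 149 and 189.8 CPM in shIGF2BP1 (log2 fold change 0.25 ± 0.22). Ube2c had 258, 288 and 228 CPM in shNT and 219.9, 209 and 250.3 CPM in shIGF2BP1 (log2 fold change -0.19 ± 0.20). The groups overlapped in both. Among the other 4 genes, Top2a had 675.5, 1354 and 590.0 CPM in shNT and 930.3, 554 and 844 CPM in shIGF2BP1, and the log2 difference of -0.17 ± 0.35 (SE) turned to 0.29 when shNT replicate 2 was left out. Mki67, the proliferation antigen Ki-67, had 398, 952 and 435 CPM against 626, 461 and 544 CPM. Birc5, survivin, ran from 172 to 291.5 CPM in shNT and from 208 to 291 CPM in shIGF2BP1. In Top2a and Mki67 shNT replicate 2 stood far above the other 5 libraries.

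Some members left the shared pattern. For each gene the median of the other 29 was subtracted in each library, and the SD of what remained, the residual, was used to rank them. Aurka (0.438), Cenpf (0.413), Cdc25b (0.391), Foxm1 (0.336) and Cenpe (0.316) had the largest residual SDs, and Ttk the smallest (0.089). In 27 of 30 members the residual SD was over 5 times the counting error. Counting error leaves out other spread between libraries, for which edgeR's common biological coefficient of variation over the genes tested was 0.29. No residual SD over all genes is given here. The ranking therefore does not show that these members departed more than other genes would. The lowest correlations with the other members were those of Cdc25b (r = 0.133, rho = -0.09), Aurka (r = 0.376, rho = 0.26) and Cdc25c (r = 0.476, rho = 0.60), and 6 of 30 members were under 0.6. Without shNT replicates 2 and 3 these r values were -0.92, 0.17 and -0.28. Other members also depended on these libraries. Cenpa went from 0.801 to -0.45, Ube2c from 0.542 to -0.03 and Kif11 from 0.689 to 0.29. In the other direction Prc1 went from 0.699 to 0.95 and Foxm1 from 0.489 to 0.87.

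**Figure D3:**
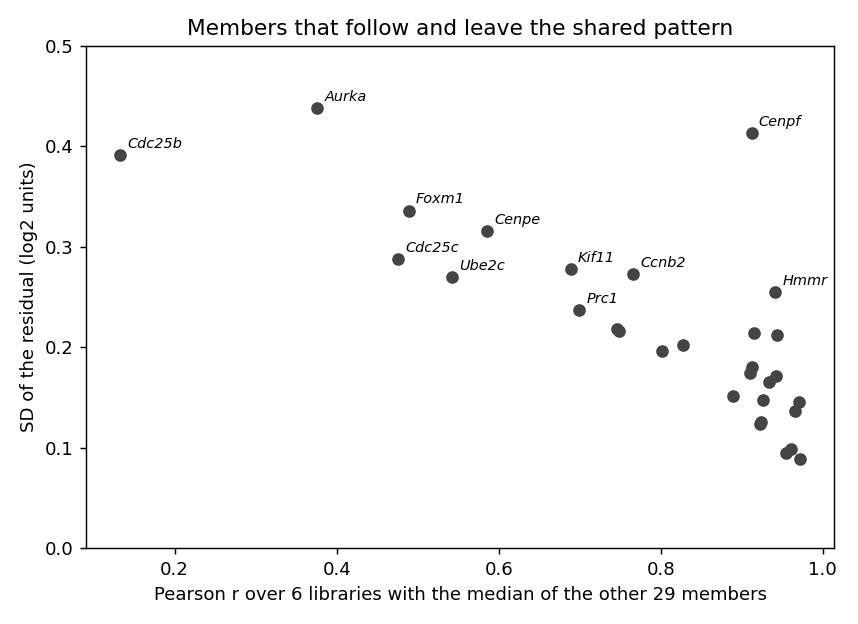
Each point is a gene, placed by its correlation over 6 libraries with the median of the other 29 members (x axis) and by the SD of its residual in log2 units (y axis). Most genes lie at the lower right, while Aurka and Cdc25b lie at the upper left and Cenpf at the upper right, with r = 0.912 and a residual SD of 0.413.

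The residual of Aurka was 0.41, 0.13 and 0.51 in the shNT libraries and -0.48, -0.54 and 0.01 in the shIGF2BP1 libraries. Relative to the other members it was therefore lower in each shIGF2BP1 library than in any shNT library, a mean difference of -0.68 on the log2 scale. Kif20a was the only other member whose residuals did not overlap, higher in shIGF2BP1 with a mean difference of 0.27. These were 2 of 30 members, a share near that of all genes. Set against the median of all 30 members, 2.8% of all genes were lower without overlap, 2.58% higher and 5.38% in either direction. The smallest p that an exact permutation of 3 against 3 libraries can give is 0.1, and no test was made of the residuals.

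Cdc25b had 409.8, 596 and 497 CPM in shNT and 369, 444.4 and 371 CPM in shIGF2BP1, means of 501 ± 93.2 and 395 ± 43.2 CPM (SD, n = 3 each). Its log2 fold change was -0.34 ± 0.23 (SE) with an adjusted p of 0.814 in edgeR. The residual was 0.58 in shNT replicate 3, where most members were low, and -0.46 and -0.39 in shIGF2BP1 replicates 1 and 3, where most were high. Cdc25b took part in 8 of the 15 negative pairs, and its lowest correlation was with Cdc20, at -0.431. Cdc25c, the other phosphatase of the list, was the flattest member, with 58.8, 69.7 and 59.7 CPM in shNT and 62.5, 68.0 and 59.4 CPM in shIGF2BP1, a 1.18-fold span. Cdc25b spanned 1.62-fold, so both phosphatases varied less over the libraries than Cdk1 (1.65-fold) and the cyclins (1.93-fold to 2.19-fold).

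Foxm1, the transcription factor that drives many genes of the list, had 128, 249.1 and 194 CPM in shNT and 154, 140.0 and 168 CPM in shIGF2BP1. The groups overlapped, and the log2 fold change was -0.30 ± 0.25 (SE; edgeR adjusted p = 0.856), or -0.06 without shNT replicate 2. In shNT replicate 3 Foxm1 was above its own mean while 25 other members were below theirs, a residual of 0.62. Cenpe, the kinetochore kinesin, had 194, 404 and 280.3 CPM in shNT and 323, 277 and 229.8 CPM in shIGF2BP1, with a residual of 0.43 in shNT replicate 3 and -0.41 in shIGF2BP1 replicate 3. Cenpf departed mainly in size, with residuals of 0.38 in shNT replicate 2 and -0.71 in shNT replicate 3. It differed in direction in shIGF2BP1 replicate 2, at 0.05 where the median member was at -0.20 (residual 0.26). In shNT replicate 3 the centred values ran from -1.12 for Cenpf to 0.21 for Foxm1. Without it, Cdc25c, Kif11 and Hmmr replaced Cenpe, Cenpf and Foxm1 among the 5 largest residual SDs, while Aurka and Cdc25b stayed among them.

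**Figure D4:**
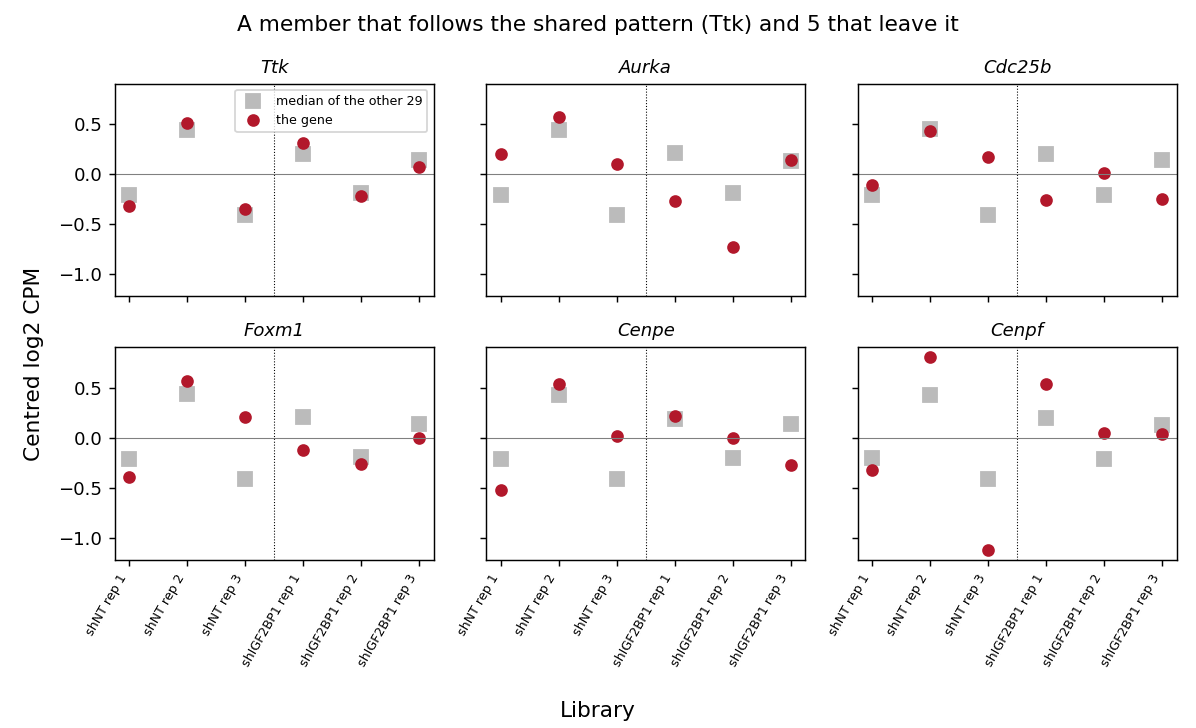
Each panel is a gene, with its centred log2 CPM (red circles) and the median of the other 29 members (grey squares) in the 6 libraries, shNT left and shIGF2BP1 right of the dotted line. In Ttk circles and squares nearly coincide. In Aurka the circles lie above the squares in the 3 shNT libraries and below them in shIGF2BP1 replicates 1 and 2, while in replicate 3 they nearly coincide.

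The spread between members was also set against gene length, taken as the merged exons of all annotated transcripts. This can exceed the length of any single transcript. In shNT replicate 2 the centred values of the 10 longest members (5.75 to 15.4 kb of merged exons) had a median of 0.56 and those of the 10 shortest (1.53 to 4.08 kb) of 0.36. In shNT replicate 1 these medians were -0.41 and -0.03. Over the 30 members, which share each library's RNA, Spearman's rho between length and centred level was -0.63, 0.44 and 0.20 in shNT replicates 1 to 3 and 0.28, 0.12 and -0.55 in shIGF2BP1 replicates 1 to 3. Over 13348 genes tested with a length it was -0.39, 0.27 and 0.19 in shNT and -0.04, -0.08 and -0.01 in shIGF2BP1. By rho the members and all genes thus had the same sign in the shNT libraries. Pearson's r in shNT replicate 3, however, was -0.01 for the members and 0.18 for all genes. In shIGF2BP1 replicates 1 and 2 the signs of rho differed. In shIGF2BP1 replicate 3 the members' value was far from that of all genes, with medians of 0.02 for the 10 longest and 0.21 for the 10 shortest. The mean exon length per count was 5.08 kb in shNT replicate 1, 5.85 and 5.88 kb in shNT replicates 2 and 3, and 5.53 to 5.54 kb in shIGF2BP1. Its part in the pattern was not tested. Mitochondrial transcripts took 2.211% of counts in shNT replicate 2, the lowest share, and up to 3.693% in shIGF2BP1 replicate 2.

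The wider set of G2 and mitosis genes was likewise highest in shNT replicate 2. Of 78 other such genes 33 were higher and 45 lower in shIGF2BP1 by sign alone (median log2 difference -0.04), and edgeR, DESeq2 and limma-voom called 0. At an unadjusted p under 0.05 edgeR also counted 0. Their correlation with the members' median was over 0.8 in 29 of 78 (37.2%). The groups did not overlap for 2 of 78, fewer than the 11.6% of all genes (5.59% lower, 6.06% higher). These, named after their values were seen, were Cks1b, a Cdk-binding subunit that was lower in shIGF2BP1, and Zw10, a kinetochore protein that was higher. Wee1, the kinase that restrains Cdk1, had 35.3, 52.0 and 31.0 CPM in shNT and 46.3, 31.6 and 46.2 CPM in shIGF2BP1 and followed the members closely (r = 0.97). Espl1, separase, did so as well (r = 0.93), with 147, 269 and 149 CPM in shNT and 212, 189.8 and 211 CPM in shIGF2BP1. The checkpoint protein Mad2l1 (r = 0.85) had 173, 209 and 148 CPM against 234.5, 142 and 209 CPM. Both were highest or nearly so in shNT replicate 2, with overlapping groups. Pkmyt1, the other Cdk1-inhibiting kinase (r = 0.42), had 28.9, 39.7 and 39.2 CPM in shNT and 35.2, 30.7 and 41.2 CPM in shIGF2BP1. The checkpoint protein Bub3 (r = 0.57) had 147, 144 and 125 CPM against 145, 109.8 and 159.9 CPM. Pttg1, securin, which holds separase inactive, had 23.9, 14.2 and 12.7 CPM in shNT and 19.9, 21.3 and 20.3 CPM in shIGF2BP1, with r = -0.05; the library highest for separase was among the lowest for securin.

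**Figure D5:**
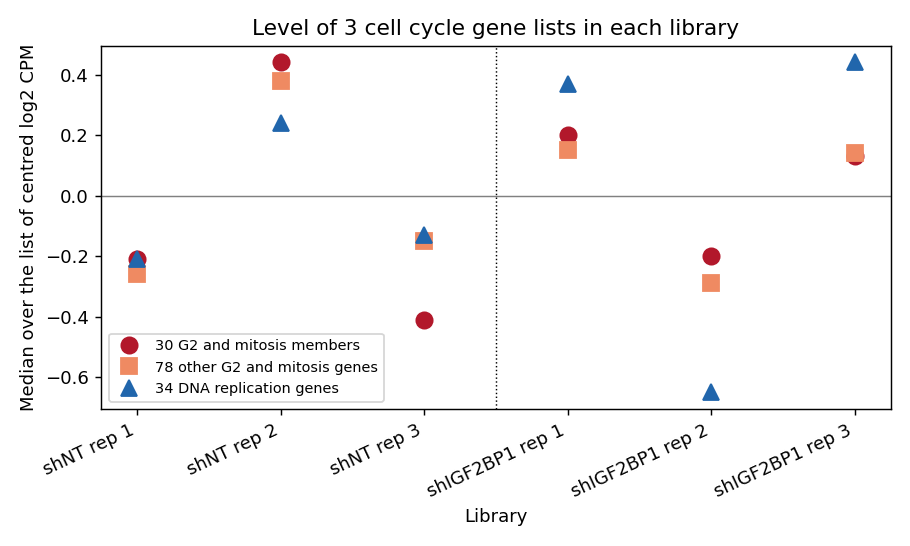
Points are the median centred log2 CPM of 3 gene lists in each library, shNT left and shIGF2BP1 right of the dotted line. Both G2 and mitosis lists are highest in shNT replicate 2 (0.44 and 0.38), whereas the DNA replication list is highest in shIGF2BP1 replicate 3 (0.44) and lowest in shIGF2BP1 replicate 2 (-0.65).

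DNA replication genes, whose mRNAs peak before those of mitosis, moved partly with the members but ranked the libraries otherwise. Their median centred values were -0.21, 0.24 and -0.13 in shNT and 0.37, -0.65 and 0.44 in shIGF2BP1. In each library the sign was that of the members' median. In shIGF2BP1 replicate 2 the replication genes were at -0.65 while the mitotic members were at -0.20, and in shNT replicate 2 the mitotic members stood higher than the replication genes. By sign alone 28 of 34 replication genes were higher in shIGF2BP1 (median log2 difference 0.19), beside 48.5% of all genes. These genes share each library's RNA, so their signs are not separate observations. For this list no count of signs was made with a library left out. At an adjusted p of 0.05 edgeR, DESeq2 and limma-voom called 0 of them. At an unadjusted p under 0.05 edgeR counted 1 of 34, on the higher side, beside 3.17% of all genes higher and 7.16% in either direction. It was Ung, a repair glycosylase named after its value was seen. Their correlation with the mitotic members' median was over 0.8 in 5 of 34 (14.7%), beside 3.7% of all genes. The median of this correlation was 0.65, against 0.72 for the 78 other G2 and mitosis genes and near 0 for all genes. The shared movement was thus not particular to the mitotic genes.

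A list of upstream regulators held subunits of the DREAM and Mybl2 complexes, the NF-Y subunits that bind CCAAT boxes, Fzr1, Trp53 and Cdkn1a. edgeR, DESeq2 and limma-voom called 0 of 18 tested, and edgeR counted 0 at an unadjusted p under 0.05. Mybl2, the activator B-Myb, had 47.0, 86.1 and 71.9 CPM in shNT and 73.1, 44.8 and 113 CPM in shIGF2BP1 (log2 fold change 0.17 ± 0.33). Lin9, a core subunit of its complex, had 29.1, 30.1 and 27.8 CPM against 33.9, 18.7 and 29.6 CPM. Rbl2, the pocket protein p130 of the DREAM complex, had 37.2, 52.4 and 37.0 CPM against 54.1, 44.9 and 46.4 CPM and followed the members (r = 0.88). The groups overlapped in these 3 genes. E2f4, the E2F of that complex, had 104, 87.4 and 127 CPM in shNT and 78.7, 74.1 and 99.2 CPM in shIGF2BP1 (log2 fold change -0.34 ± 0.21) and went against the members' order (r = -0.50), as did Trp53 (r = -0.50) with 180.2, 155 and 185 CPM against 136, 139 and 161 CPM. Fzr1, the APC/C activator Cdh1 of late mitosis and G1, had 89.2, 83.8 and 72.9 CPM in shNT and 105, 95.4 and 106 CPM in shIGF2BP1, without overlap (log2 fold change 0.32 ± 0.18, edgeR adjusted p = 0.778). In all, 4 of 18 regulators had groups that did not overlap, beside 11.6% of all genes. The others, named after their values were seen, were Lin37 and E2f5, both higher in shIGF2BP1, and Nfya, which was lower. Cdkn1a, the p53 target p21 that halts the cycle, had 1 count in shNT replicate 3, 1 in shIGF2BP1 replicate 2 and 0 elsewhere, and was not tested.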

How the data were processed

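Poly-A RNA of 6 libraries was counted per gene. The authors' deposited table holds raw read counts, not normalised, as whole numbers with totals that differ between libraries. Per the submitters' processing notes, HISAT2 2.1.0 and HTSeq were used with GRCm38, after bcl2fastq. The strand setting is not given in the sources used here. Symbols and merged exon lengths came from GENCODE M21, and 1167 unmatched IDs held 0.155% of counts. The 92 spike-in rows held 0 counts. Promoters came from RefSeq (GRCm38.p6).

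Counts were tested with edgeR 4.0.16 in R 4.3.3 (TMM, filterByExpr with a minimum count of 10, robust quasi-likelihood F test, two-sided, no covariates), with Benjamini-Hochberg adjustment over all 13445 genes tested. A standard error is the log2 fold change over the root of F. Covariation used log2 CPM with a prior count of 2, in Python 3.11.15 with numpy 2.4.6. DESeq2 1.42.0 and voom of limma 3.58.1 were alternatives, beside RLE factors, library size only, other filters, a smaller prior count of 0.5, the replicate block, leaving out each library and an adjusted p of 0.01. The scripts were tested on simulated data. Counting errors are Poisson and cover counting only.

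The members and lists were chosen with earlier results of these data known. Genes given with every library were Igf2bp1, the 5 members with the largest residual SD, the 3 lowest and 2 highest correlations, the 3 smallest p, the most abundant member per role, and 13 fixed regulators. Other members are described to account for the list, by range or by every library where the libraries differed, and those were picked after their values were seen. Some markers of the neuroblastoma list are not reported here. The components, the length comparison and the promoter words were added after the data were seen.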

Additional observations from a re-analysis of the deposited data

How the results depend on the processing

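The count of 0 called members held in every alternative run, while the 3 called genes of the whole table became 138 without a filter, 82 with DESeq2, 18 with the replicate block, 1 at mean CPM 5, likewise 1 by limma-voom, 1 if the adjusted p had to be under 0.01, and 1 to 5 when a library was left out. The cause was not tested. The members' median log2 fold change of 0.012 was 0.092 with library size only (23 positive) and 0.087 with the replicate block (19 positive), and ran from -0.099 without shNT replicate 3 to 0.382 without shNT replicate 2. The median correlation was 0.857 with Spearman's rho, 0.929 after replicate means were subtracted (the replicate block), and 0.856 to 0.918 when a library was left out. Of the 5 largest residual SDs, 2 to 5 stayed when a library was left out, with 2 without shNT replicate 3.

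Single log2 fold changes were recomputed for the 12 members named by rule, not for the other 18, among which more signs changed, as the counts of positive values show. With library size only Cenpe was 0.002 and Tpx2 0.064, and Tpx2 was also 0.002 at mean CPM 5, 0.006 with the replicate block and 0.011 by limma-voom. Over the fits that left out a library the values ran from -0.031 to 0.093 for Cdc25c, -0.304 to 0.221 for Cenpe, -0.125 to 0.899 for Cenpf, -0.387 to 0.294 for Top2a, -0.144 to 0.254 for Tpx2 and -0.085 to 0.405 for Ttk. Without a change of sign they ran from -0.787 to -0.342 for Aurka, -0.468 to -0.201 for Cdc25b, -0.521 to -0.064 for Foxm1, 0.109 to 0.481 for Plk1, -0.271 to -0.104 for Ube2c and 0.031 to 0.603 for Bub1b. The deviations of libraries with the same replicate number correlated at 0.19, -0.09 and 0.28 over all genes tested. Between groups, libraries with different numbers correlated at -0.37 to 0.22. These values do not settle whether the numbers pair the samples. The labels do not say that they do, so the main fit did not pair them. With 3 libraries a group the median fold change of the members depended on shNT replicate 2, and an uncalled member is not shown to be equal between groups.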
